A study of Mus musculus with 15 samples.

Results

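The liver around the tumors of MAT1A knockout (KO) mice was compared with the liver of wild type mice, across all genes of the array. MAT1A is the liver form of methionine adenosyltransferase, which joins methionine and ATP to make S-adenosylmethionine (SAMe), the methyl donor of most methylation reactions and a source of polyamines and, through homocysteine, of glutathione. Mice without MAT1A are known to develop fatty liver, steatohepatitis and later hepatocellular carcinoma. Peritumoral tissue is the non-tumor part of a liver that carries a tumor, so its cells share the genotype and the age of the tumor cells.

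All 10 samples compared were whole liver tissue of 15 month old mice of the strain C57B6SJL, 5 from healthy wild type mice and 5 from peritumoral liver of MAT1A KO mice with hepatocellular carcinoma. They are 10 of the 15 arrays of the series, and the other 5 are tumors of MAT1A KO mice. The tumors are given here beside a few genes, in a short comparison with peritumoral liver and in a fit of all 3 groups. No treatment and no sex is given by the labels. The KO group differed from the wild type group in genotype and also in bearing a tumor elsewhere in the liver, and these cannot be told apart here. Values are on the log2 scale of RMA, on which a difference of 1 is a doubling, and a log2 ratio is the peritumoral mean minus the wild type mean.

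All 10 arrays looked like liver, with a summed level of 6 hepatocyte markers (Alb, Ttr and others) between 16.5 and 16.7 on the log2 scale. However, 2 arrays stood apart from the rest. Wild type replicate 4 correlated with the other wild type arrays at a mean r of 0.963, where the other 4 had 0.981 to 0.984, and peritumoral replicate 2 correlated with its group at 0.938, where the other 4 had 0.971 to 0.977. Of 12393 genes, 649 lay at least 2-fold from the wild type mean in wild type replicate 4 (74 to 188 in the other 4) and 1529 in peritumoral replicate 2 (181 to 349 in the other 4). Results are therefore given with all 10 arrays and with the 8 arrays that remain without these 2. Both arrays were known from these same data to lie apart when they were left out, so the p-values with 8 arrays are smaller than a free choice would give.

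Mat1a itself was measured by 1 probe set. It lay at 12.30, 12.25, 12.67, 12.72 and 12.68 in wild type replicates 1 to 5 and at 8.84, 11.44, 9.02, 8.99 and 9.29 in peritumoral replicates 1 to 5. The 2 groups did not overlap, but the array labelled peritumoral replicate 2 lay between the other peritumoral arrays and the wild type arrays, nearer to the latter. In the tumors Mat1a lay at 8.72, 10.47, 8.63, 8.33 and 10.50 in replicates 1 to 5, so tumor replicates 2 and 5 were also above the rest of their group. The log2 ratio was -3.01 (SE 0.44, limma adjusted p = 0.0598, n = 5 and 5), and without wild type replicate 4 and peritumoral replicate 2 it was -3.44 (SE 0.13, adjusted p = 2.28e-06, n = 4 and 4), or 10.9-fold lower. Without peritumoral replicate 2 alone it was -3.49 (adjusted p = 1.83e-06). Which part of the gene was deleted, relative to this probe set, is not known here, so the level of 8.84 to 9.29 cannot be read as remaining function.

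Over the 10 arrays, 5 of 12393 genes passed an adjusted p of 0.05, which is 0.0403% of the genes tested, 4 of them higher (0.0323%) and 1 lower (0.00807%) in peritumoral KO liver. At an unadjusted p under 0.05 there were 1866 genes (15.1%), 642 higher (5.18%) and 1224 lower (9.88%). The 5 genes that passed were Asns, Nqo1, Parp16, Elapor1 and Bcl7c.

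Asns, asparagine synthetase, is a classic target of the transcription factor ATF4, which is induced when amino acids are scarce or the endoplasmic reticulum is stressed. It lay at 7.51, 6.72, 7.56, 8.13 and 7.56 in wild type liver and at 9.14, 9.87, 9.95, 9.67 and 9.49 in peritumoral KO liver. Every peritumoral array was above every wild type array, with wild type replicate 4 the highest of its group. Asns rose by 2.13 (SE 0.24, limma adjusted p = 0.0116), or 4.37-fold. Without peritumoral replicate 4 its adjusted p was 0.0526, and in a fit of all 3 groups of arrays 0.0706.

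Nqo1, a quinone reductase that protects against oxidative stress, is a classic target of the transcription factor NRF2. It lay at 5.30, 5.29, 5.03, 5.63 and 5.50 in wild type liver and at 6.78, 6.41, 6.90, 7.06 and 6.67 in peritumoral KO liver, with no overlap. Nqo1 rose by 1.42 (SE 0.14, adjusted p = 0.00549) and kept an adjusted p under 0.05 without any single array. In the 5 tumors it had a mean of 7.95 ± 0.51 (SD, n = 5), 1.19 above peritumoral liver with an adjusted p of 0.161.

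Parp16, an ADP-ribosyltransferase of the endoplasmic reticulum membrane, had the largest of the 5 differences. Its values were 7.74, 6.92, 8.21, 6.59 and 6.91 in wild type liver and 10.79, 10.29, 9.16, 9.59 and 10.32 in peritumoral KO liver, again without overlap. Parp16 rose by 2.75 (SE 0.37, adjusted p = 0.0451), or 6.74-fold. The adjusted p was over 0.05 without any 1 of wild type replicates 1, 2 or 5 or of peritumoral replicates 1, 4 or 5 (0.0635 to 0.186) and after a second quantile normalization (0.0575).

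Elapor1, a membrane protein of endosomes and lysosomes, lay at 4.93, 4.66, 4.77, 4.87 and 4.41 in wild type liver and at 5.99, 6.68, 6.09, 6.34 and 6.22 in peritumoral KO liver. It rose by 1.54 (SE 0.14, adjusted p = 0.00376). Bcl7c, a subunit of the SWI/SNF chromatin remodelling complex, was the 1 gene that fell. Its values were 8.33, 8.68, 8.36, 7.91 and 8.91 in wild type liver and 6.53, 6.30, 6.38, 6.37 and 5.73 in peritumoral KO liver. Bcl7c fell by 2.18 (SE 0.20, adjusted p = 0.00376), and its mean in the tumors was 6.27 ± 0.33 (SD, n = 5), which differed from peritumoral liver by 0.01 (adjusted p = 0.997). Elapor1 did not pass in a fit of all 3 groups of arrays (adjusted p = 0.267).

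**Figure D1:**
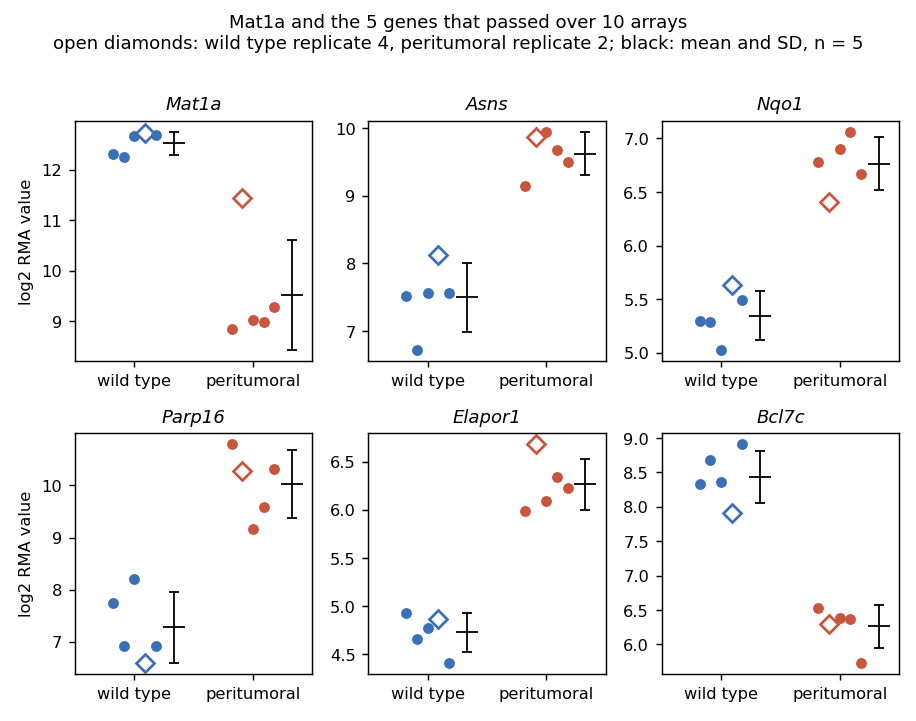
Log2 RMA values of Mat1a and of the 5 genes that passed over 10 arrays, 1 panel per gene with its own vertical axis, for 5 wild type (blue) and 5 peritumoral KO (red) arrays; black bars are the mean and SD (n = 5), and open diamonds are wild type replicate 4 and peritumoral replicate 2. No panel has overlapping groups, and in the panel of Mat1a peritumoral replicate 2 lies at 11.44, between the other peritumoral arrays and wild type liver.

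Beyond these 5 genes, the 2 groups of 5 arrays did not overlap for 397 genes (3.2% of those tested), 139 higher (1.12%) and 258 lower (2.08%) in peritumoral KO liver. Of these, 37 also had a mean difference of at least 2-fold, 25 higher and 12 lower. These genes separated the groups with wild type replicate 4 and peritumoral replicate 2 in the comparison, and all but the 5 above had an adjusted p over 0.05 with 10 arrays.

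Several proteins of the complement system, which hepatocytes make and secrete, were among the lower genes. C6, a part of the membrane attack complex, lay at 10.31, 10.62, 10.43, 10.60 and 10.15 in wild type liver and at 8.56, 7.34, 8.77, 8.94 and 9.12 in peritumoral KO liver. Its log2 ratio was -1.87 (SE 0.29, adjusted p = 0.0598) with 10 arrays and -1.53 (SE 0.14, adjusted p = 0.000689) with 8. C9, which forms the pore of the same complex, had -1.51 (SE 0.29, adjusted p = 0.0823), with at least 12.42 in each wild type array against at most 11.78 in each peritumoral array. Masp2, the protease that starts the lectin pathway, had -0.94 (SE 0.17, adjusted p = 0.0787), with 9.30 to 9.67 against 7.98 to 9.03. Of 36 complement and coagulation genes, none passed with 10 arrays, and an unadjusted p under 0.05 was reached by 2 that were higher and 7 that were lower. Over all genes 5.18% were higher and 9.88% lower at that threshold. With 8 arrays C4bp, an inhibitor of the classical pathway, rose by 0.46 (adjusted p = 0.0408), and C6, Mbl2, C9, Masp2 and C8g fell, against 7.73% of all genes called in that fit. Their list as a whole had a median log2 ratio of -0.05 with 10 arrays and 0.04 with 8, beside -0.06 and -0.07 over all genes.

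Other enzymes with lower levels and separate groups were Elovl2, Hao1 and Acnat2. Elovl2, which elongates polyunsaturated fatty acids, lay at 10.63, 10.70, 10.58, 10.05 and 10.67 in wild type liver and at 9.54, 8.10, 9.45, 9.41 and 8.49 in peritumoral KO liver, a log2 ratio of -1.53 (SE 0.28, adjusted p = 0.0787). Hao1, the glycolate oxidase of liver peroxisomes, lay at 11.05, 10.92, 10.86, 10.03 and 10.82 against 8.16, 4.61, 9.28, 8.69 and 8.15. Peritumoral replicate 2 was the lowest by far for Hao1, whose log2 ratio was -2.96 (SE 0.74, adjusted p = 0.159) with 10 arrays and -2.34 (SE 0.23, adjusted p = 0.000832) with 8. Acnat2, an acyltransferase that joins bile or fatty acids to amino acids in mouse liver, had a log2 ratio of -1.85 (SE 0.34, adjusted p = 0.0787), with 8.77 to 10.18 in wild type liver and 7.06 to 8.31 in peritumoral KO liver.

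Among the higher genes was Cd36, the fatty acid translocase that takes up long chain fatty acids. It lay at 6.85, 6.24, 6.71, 8.41 and 7.54 in wild type liver and at 9.13, 8.42, 8.93, 9.06 and 9.38 in peritumoral KO liver, and wild type replicate 4 came within 0.01 of the lowest peritumoral array. Its log2 ratio was 1.83 (SE 0.36, adjusted p = 0.0967) with 10 arrays and 2.29 (SE 0.24, adjusted p = 0.0013) with 8. The sterol exporters Abca1 and Abcg5 had log2 ratios of 0.97 (SE 0.21, adjusted p = 0.113) and 1.06 (SE 0.25, adjusted p = 0.146). Abca1 ran from 7.68 to 8.48 in wild type liver and from 8.72 to 9.57 in peritumoral KO liver, and Abcg5 from 7.49 to 8.70 against 8.84 to 9.79. Cyp2d22, a cytochrome P450, ran from 9.27 to 9.96 against 10.22 to 10.61, with a log2 ratio of 0.89 (SE 0.14, adjusted p = 0.0598).

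The fetal liver protein Afp, which serves as a marker of hepatocellular carcinoma, was low in both groups but separate. It lay at 4.01, 3.90, 3.96, 4.09 and 3.75 in wild type liver and at 4.47, 4.80, 4.86, 5.46 and 4.83 in peritumoral KO liver, a log2 ratio of 0.94 (SE 0.16, adjusted p = 0.0626), and had a mean of 7.12 ± 0.67 (SD, n = 5) in the tumors. The difference of 2.24 between tumors and peritumoral liver had an adjusted p of 0.0807. Cdkn2c, the cell cycle inhibitor p18, ran from 5.47 to 7.15 in wild type liver and from 7.27 to 7.90 in peritumoral KO liver, with a log2 ratio of 1.51 (SE 0.28, adjusted p = 0.0787). Of 36 genes of the cell cycle and DNA replication, Cdkn2c alone passed with 8 arrays (log2 ratio 1.80, adjusted p = 0.000689, with 7.73% of all genes called). Nfia, a transcription factor of the nuclear factor I family, ran from 5.43 to 5.93 against 4.52 to 5.19, with a log2 ratio of -0.89 (SE 0.14, adjusted p = 0.0598).

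Further genes with separate groups, chosen after their values were seen, were Galns, a lysosomal sulfatase (log2 ratio 1.60, SE 0.25), Plaat3, a phospholipase and acyltransferase (1.70, SE 0.25), Ces1g, a carboxylesterase (1.34, SE 0.26), Gpt2, the mitochondrial alanine transaminase (1.12, SE 0.37), and Ndrg1, a stress-responsive gene (1.08, SE 0.30). Their adjusted p-values over the 10 arrays were 0.0598, 0.0598, 0.0928, 0.232 and 0.192, in the same order.

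**Figure D2:**
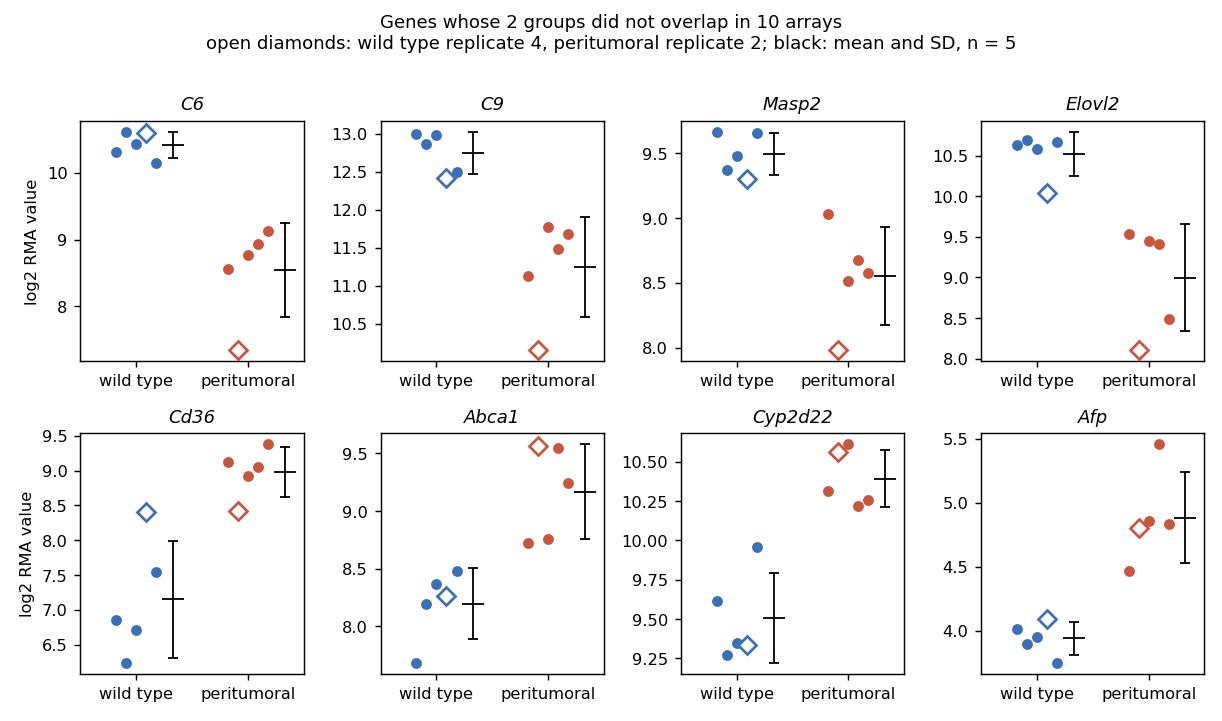
Log2 RMA values of 8 genes whose 2 groups did not overlap, 1 panel per gene with its own vertical axis, for 5 wild type (blue) and 5 peritumoral KO (red) arrays; black bars are the mean and SD (n = 5), and open diamonds are wild type replicate 4 and peritumoral replicate 2. In the complement genes C6, C9 and Masp2 and in Elovl2 peritumoral replicate 2 is the lowest array, and in Cd36 wild type replicate 4 lies at 8.41 beside the lowest peritumoral array at 8.42.

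With 8 arrays 958 genes passed (7.73% of 12393), 474 higher (3.82%) and 484 lower (3.91%), all 5 genes of the 10-array comparison among them. At an unadjusted p under 0.05 there were 3641 (29.4%), 1374 higher (11.1%) and 2267 lower (18.3%). The groups of 4 arrays did not overlap for 2324 genes (18.8%), 800 higher (6.46%) and 1524 lower (12.3%). Without wild type replicate 4 alone 267 genes passed, and without peritumoral replicate 2 alone 68. Without any 1 of the other 8 arrays 4 to 8 genes passed.

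**Figure D3:**
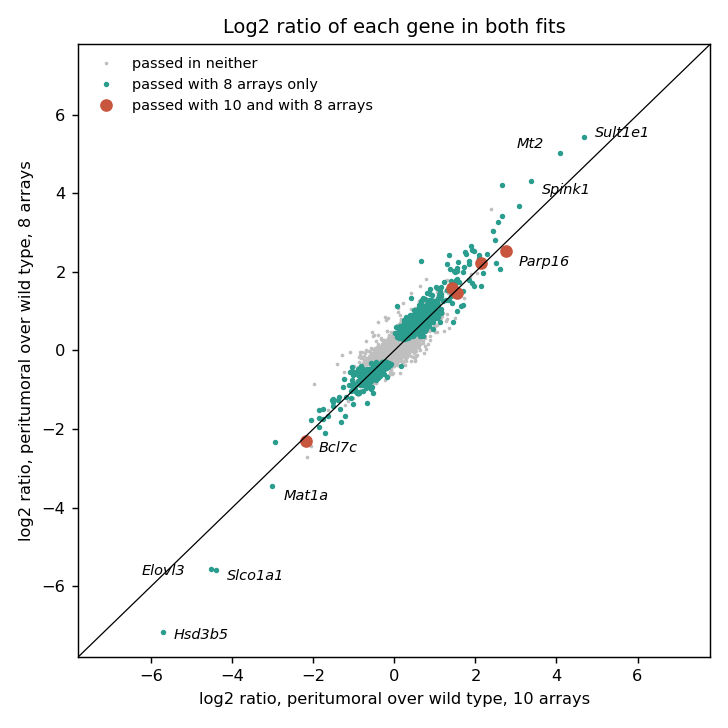
Log2 ratio of peritumoral KO over wild type liver for each of 12393 genes with all 10 arrays (horizontal axis) and with 8 arrays (vertical axis), with the line of equal values. The genes that passed with 8 arrays only (green) include Hsd3b5, Slco1a1, Elovl3, Sult1e1 and Mt2, whose ratios were large in both fits, and the 5 genes that passed in both (red) lie close to the line.

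The largest differences of the 8-array comparison were in genes that depend on sex. In mouse liver, pulses of growth hormone in males raise one set of genes and hold down another, which is high in females, and STAT5B carries the signal. Hsd3b5, a keto-steroid reductase that is expressed in male liver, lay at 11.25, 11.14, 10.51, 3.68 and 11.37 in wild type liver and at 3.86, 3.74, 4.83, 3.40 and 3.55 in peritumoral KO liver. Wild type replicate 4 lay within the peritumoral range, so the groups overlapped. The log2 ratio was -5.72 (SE 1.32, adjusted p = 0.14) with 10 arrays, and with 8 arrays Hsd3b5 fell by 7.16 (SE 0.30, adjusted p = 3.2e-06). Its peritumoral values lay near those of Xist (3.27 to 3.81), an RNA of female cells that was low in all arrays, so no exact fold can be read from them.

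Slco1a1, an organic anion uptake transporter of male liver, had the same form. It lay at 9.41, 9.90, 9.75, 4.15 and 9.62 in wild type liver and at 4.23, 4.44, 4.27, 3.94 and 3.92 in peritumoral KO liver, with a log2 ratio of -4.41 (SE 0.98, adjusted p = 0.125) with 10 arrays and -5.58 (SE 0.13, adjusted p = 2.95e-08) with 8. Elovl3, an elongase of very long chain fatty acids, lay at 12.67, 12.98, 12.47, 4.66 and 12.46 against 6.24, 4.28, 10.06, 6.28 and 5.69, and peritumoral replicate 3 lay nearest to the 4 high wild type arrays. With 8 arrays Elovl3 fell by 5.58 (SE 0.80, adjusted p = 0.00688). Cyp7b1, an oxysterol hydroxylase of the alternative bile acid pathway, lay at 12.47, 12.33, 12.59, 9.77 and 11.80 against 9.91, 8.26, 11.74, 10.05 and 9.63 and fell by 1.96 with 8 arrays (SE 0.41, adjusted p = 0.0261).

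Of 18 genes of the male-biased list none passed with 10 arrays, and the median log2 ratio was -0.82, beside -0.06 over all genes. With 8 arrays 9 fell, 3 rose and 6 did not pass, with a median of -0.75 beside -0.07 over all genes and 7.73% of all genes called. The 9 were Hsd3b5, Slco1a1, Elovl3, Cyp7b1, C6, Keg1, Mup3, Nudt7 and Gstp1. The 3 that rose were the cytochromes P450 Cyp4a12a and Cyp2d9 and the carboxylesterase Ces2e. Cyp4a12a lay at 11.64, 11.23, 11.51, 6.01 and 11.85 in wild type liver and at 12.60, 7.76, 12.95, 12.16 and 12.48 in peritumoral KO liver. Its low values were in wild type replicate 4 and peritumoral replicate 2, and with 8 arrays it rose by 0.99 (SE 0.18, adjusted p = 0.0162). Wild type replicate 4 was the lowest wild type array for 15 of the 18 genes, and peritumoral replicate 2 the lowest peritumoral array for 14. Over all genes these shares were 39.8% and 29.8%. Relative to the wild type mean, the list median per array was -0.68, -2.98, 0.35, -0.52 and -0.80 in peritumoral replicates 1 to 5. It was 0.42, 0.33, 0.42, -1.75 and 0.53 in wild type replicates 1 to 5. Peritumoral replicate 3 was thus within the wild type range for the list as a whole.

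Sult1e1, the estrogen sulfotransferase, which is low in male mouse liver, lay at 4.88, 3.61, 4.58, 10.26 and 6.26 in wild type liver and at 10.49, 11.99, 9.79, 10.11 and 10.62 in peritumoral KO liver. Again wild type replicate 4 lay within the peritumoral range. The log2 ratio was 4.68 (SE 1.07, adjusted p = 0.138) with 10 arrays, and Sult1e1 rose by 5.42 with 8 (SE 0.46, adjusted p = 0.000499). Of 18 genes of the female-biased list 3 rose with 8 arrays, Sult1e1, Sult3a1 and Cyp17a1, and none fell, against 3.82% of all genes called higher. The list's median was 0.35 with 10 arrays and 0.39 with 8, beside -0.06 and -0.07 over all genes. Wild type replicate 4, left out of the 8-array fit, was the highest wild type array for 11 of the 18 genes, against 23.5% over all genes. Sult3a1 was higher in wild type replicate 4 (9.97) than in any other array, against 3.22 to 3.59 in the other wild type arrays and 4.16 to 6.37 in peritumoral KO liver.

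The cytochromes P450 Cyp2b9 and Cyp2b13, chosen after their values were seen, were high in part of the peritumoral group. Cyp2b9 lay at 5.20, 4.70, 4.50, 6.48 and 4.36 in wild type liver and at 3.74, 4.02, 10.88, 9.75 and 8.79 in peritumoral KO liver, and Cyp2b13 at 4.59 to 5.15 against 4.57, 4.90, 10.63, 8.62 and 7.63. Neither passed with 8 arrays (adjusted p = 0.0986 and 0.0845). The labels give no sex, and all 10 arrays had a low Xist (3.27 to 3.81), the RNA of the silent X chromosome of females, and a Y-linked Eif2s3y of 7.46 to 8.32.

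**Figure D4:**
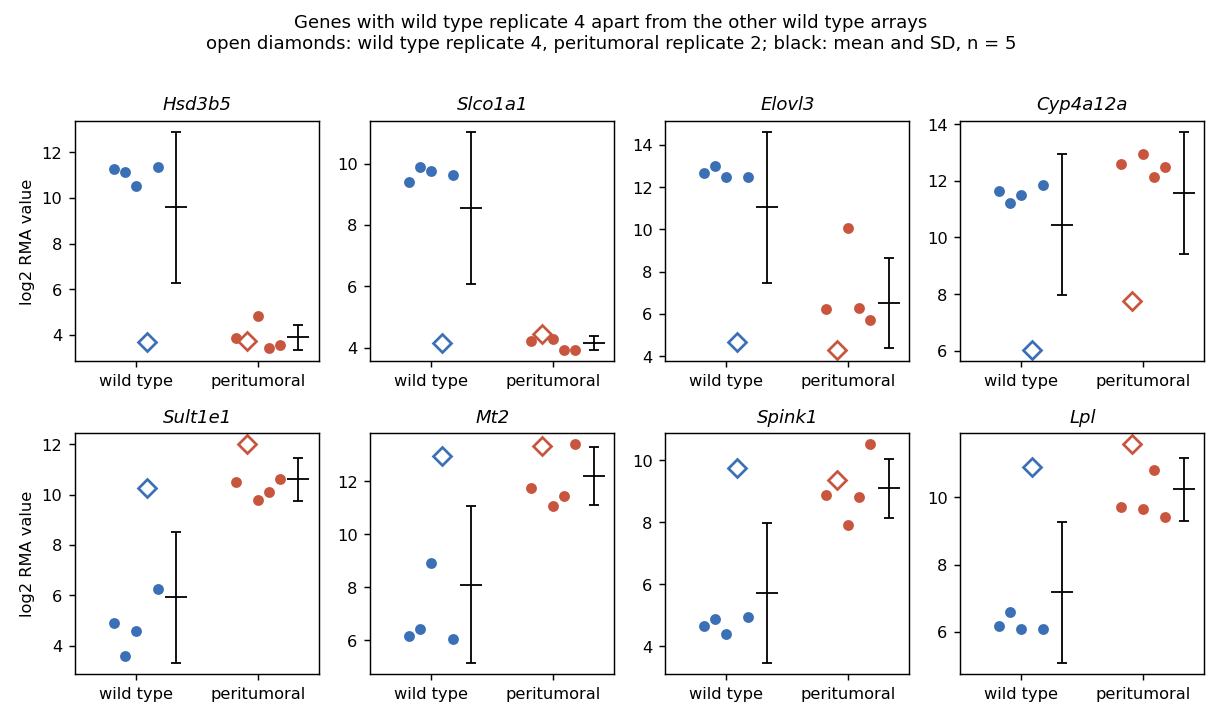
Log2 RMA values of 8 genes for which wild type replicate 4 lies away from the other wild type arrays, 1 panel per gene with its own vertical axis, for 5 wild type (blue) and 5 peritumoral KO (red) arrays; black bars are the mean and SD (n = 5), and open diamonds are wild type replicate 4 and peritumoral replicate 2. In all panels but that of Cyp4a12a, where it is the lowest of all arrays at 6.01, wild type replicate 4 lies at the level of the peritumoral arrays.

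Of 29 genes of the acute phase, the hepatic response to inflammation, 5 rose in peritumoral KO liver with 8 arrays (3.82% of all genes were called higher) and none passed with 10. Mt2, a metallothionein that binds zinc and copper, lay at 6.17, 6.41, 8.93, 12.95 and 6.03 in wild type liver and at 11.73, 13.34, 11.08, 11.43 and 13.39 in peritumoral KO liver. The other metallothionein, Mt1, ran from 6.33 to 9.53 against 8.51 to 10.64. With 8 arrays Mt2 rose by 5.02 (SE 0.68, adjusted p = 0.00551) and Mt1 by 2.34 (SE 0.47, adjusted p = 0.0242), and with 10 the adjusted p-values were 0.216 and 0.228. Lcn2, lipocalin 2, which withholds iron from bacteria, lay at 8.90, 8.07, 10.34, 13.39 and 7.47 against 12.16, 13.02, 10.79, 11.99 and 13.49 and rose by 3.42 with 8 arrays (SE 0.66, adjusted p = 0.021). The orosomucoids Orm2 and Orm3 rose as well, by 2.51 (adjusted p = 0.046) and 2.02 (adjusted p = 0.0451).

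None of the 29 fell, and 24 did not pass with 8 arrays. The median was 0.43 with 10 arrays and 0.66 with 8, beside -0.06 and -0.07 over all genes, and 27 of 29 had a ratio above 0. Values of the serum amyloid A genes were spread widely within groups, with Saa2 at 8.57 to 13.48 in wild type liver and at 9.76 to 14.23 in peritumoral KO liver (8-array adjusted p = 0.205). Wild type replicate 4 was the highest wild type array for 24 of the 29 genes, against 23.5% over all genes. Markers of granulocytes moved with it. The summed level of 7 granulocyte markers was 8.02, 8.70, 8.60, 14.24 and 7.91 in wild type liver and 8.63, 10.50, 7.76, 11.22 and 10.61 in peritumoral KO liver. None of the 7 passed, and the list's median log2 ratio was -0.23 with 10 arrays and 0.83 with 8. The part of these cells in the acute phase values was not tested. In whole liver tissue, more cells of a type and more RNA per cell cannot be told apart.

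Other genes with large rises in the 8-array comparison also had a high value in wild type replicate 4. Spink1, a secreted trypsin inhibitor that rises in many liver tumors, lay at 4.66, 4.89, 4.39, 9.76 and 4.94 in wild type liver and at 8.89, 9.37, 7.91, 8.82 and 10.51 in peritumoral KO liver and rose by 4.31 with 8 arrays (SE 0.44, adjusted p = 0.0013). Lpl, lipoprotein lipase, lay at 6.18, 6.60, 6.07, 10.91 and 6.10 against 9.72, 11.58, 9.65, 10.82 and 9.42 and rose by 3.67 (SE 0.27, adjusted p = 0.000316). Prtn3, a serine protease of neutrophils and their precursors, lay at 4.68, 5.07, 5.45, 10.61 and 4.08 against 9.80, 6.96, 5.99, 9.85 and 10.52 and rose by 4.22 with 8 arrays (SE 0.85, adjusted p = 0.0242). For all of these the 10-array adjusted p was over 0.2. Aqp4, a water channel, differed in this respect. It lay at 4.06, 3.40, 4.28, 3.27 and 4.77 in wild type liver and at 7.29, 3.27, 7.77, 6.38 and 7.23 in peritumoral KO liver, so that peritumoral replicate 2 alone was at the wild type level, and it rose by 3.04 with 8 arrays (SE 0.33, adjusted p = 0.00157).

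Genes induced by interferon, which carry the antiviral state, formed a list of 33. With 8 arrays 7 rose, none fell and 26 did not pass, against 3.82% of all genes called higher, and the median was 0.47, beside -0.07 over all genes. Usp18, a protease that removes ISG15 and limits the interferon receptor, lay at 6.18, 6.76, 5.40, 7.66 and 5.75 in wild type liver and at 8.38, 7.16, 8.10, 7.72 and 7.84 in peritumoral KO liver, rising by 1.99 with 8 arrays (SE 0.27, adjusted p = 0.00513). The other 6 were Oasl1, Oasl2, Trim30a, Ifih1, Ifit2 and Ifit3, by log2 ratios of 0.58 to 1.13. With 10 arrays none of the 33 passed, and the median was 0.16. At an unadjusted p under 0.05 in limma with 10 arrays, 1 was higher and 1 lower (5.18% and 9.88% over all genes). Peritumoral replicate 2 was the lowest peritumoral array for 26 of the 33 genes, against 29.8% over all genes. Wild type replicate 4 was the highest wild type array for 17 of the 33, against 23.5%. The 8-array fit leaves out both of these arrays.

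Of 43 genes of the extracellular matrix and of stellate cells, the cells that make scar tissue in liver, none passed with 10 arrays, and with 8 arrays 10 rose and none fell, against 3.82% and 3.91% of all genes. Of the wild type arrays, replicate 4 was the highest for 28 of the 43 and peritumoral replicate 2 the highest peritumoral array for 25, against 23.5% and 35.4% over all genes. These were the collagens Col4a1 (log2 ratio 1.03), Col4a2 (0.99) and Col14a1 (0.65), the proteoglycans Lum (1.25), Dcn (0.59) and Bgn (0.50), the PDGF receptors Pdgfra (0.55) and Pdgfrb (0.53), the filament protein Vim (1.15) and the protease inhibitor Timp3 (0.50). Lum lay at 6.85, 7.76, 7.34, 9.16 and 6.88 in wild type liver and at 8.32, 9.46, 8.09, 9.17 and 8.24 in peritumoral KO liver. The fibrillar collagens did not pass, with Col1a1 at 4.50 to 4.77 against 4.49 to 4.96 and Col3a1 at 5.41 to 6.58 against 4.26 to 6.87. Acta2, which marks activated stellate cells, had a log2 ratio of -0.42 with 8 arrays (adjusted p = 0.0626). The list's median was 0.20 with 10 arrays and 0.16 with 8, beside -0.06 and -0.07 over all genes. The summed level of 8 markers of stellate cells and fibroblasts ran from 10.9 to 11.8 in wild type liver and from 11.4 to 12.3 in peritumoral KO liver, and all 8 are also in the list. The keratins of hepatocytes Krt8 and Krt18 rose with 8 arrays by 0.77 (adjusted p = 0.0107) and 1.05 (adjusted p = 0.00376), while the bile duct keratin Krt19 had -0.47 (adjusted p = 0.115).

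Of 28 measured ATF4 target genes Asns passed with 10 arrays, 5 genes had a higher level and none a lower one at an unadjusted p under 0.05 (5.18% and 9.88% over all genes), and the median was 0.11. With 8 arrays Asns, Chac1, Nupr1 and Trib3 rose and Phgdh fell, against 3.82% and 3.91% of all genes. Chac1, which degrades glutathione, lay at 5.20, 5.25, 5.57, 6.21 and 5.69 in wild type liver and at 6.90, 6.11, 6.88, 7.39 and 7.61 in peritumoral KO liver, and rose by 1.77 with 8 arrays (SE 0.18, adjusted p = 0.00131). Only wild type replicate 4 and peritumoral replicate 2 overlapped. Nupr1, a stress-induced chromatin protein, lay at 4.54 to 4.73 in wild type liver and at 5.52, 4.91, 5.07, 6.86 and 5.76 in peritumoral KO liver, with a mean of 8.42 ± 0.74 (SD, n = 5) in the tumors. Other targets did not pass, among them Atf3, Ddit3, Psat1, Sesn2 and Fgf21 (8-array log2 ratios -0.19 to 0.39), nor did Atf4 itself (0.12, adjusted p = 0.727). Of 21 genes of the unfolded protein response none passed with 10 or with 8 arrays in limma, and an unadjusted p under 0.05 was reached by 0 with 10 arrays and by 2, both higher, with 8. Over all genes the unadjusted shares were 15.1% with 10 arrays and 29.4% with 8 (11.1% higher), so both counts were below them.

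ATF4 binds with C/EBP proteins to an element with the core TGATGNAA. The promoters of 3 of the genes that rose hold this core on either strand, and they are shown because Asns passed with all 10 arrays and Chac1 and Nupr1 with 8. The 60 bases are the RefSeq sequence of the build GRCm38.p6, read 5′ to 3′ along the gene, with the core in capitals, and lie at chr6:7693210-7693269 on the minus strand for Asns, chr2:119351024-119351083 on the plus strand for Chac1 and chr7:126625546-126625605 on the minus strand for Nupr1.
Asns: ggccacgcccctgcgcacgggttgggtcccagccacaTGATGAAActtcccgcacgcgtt
Chac1: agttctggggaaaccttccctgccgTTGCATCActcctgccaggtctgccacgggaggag
Nupr1: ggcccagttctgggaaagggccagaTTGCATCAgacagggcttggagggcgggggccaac

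In Asns the core reads along the gene and starts at position -23 from the gene's start, and in Chac1 and Nupr1 it reads on the other strand, at -193 and -110. Over windows of 250 bases before to 50 bases after the start, 11 of 24 ATF4 targets with a promoter sequence held the core (45.8%), against 4.51% of 27025 genes. Members that did not pass held it too, such as Atf3, Fgf21 and Slc7a11, and Trib3, which rose with 8 arrays, did not hold it in this window. The list was drawn from known ATF4 targets, so the share describes the list and not the KO liver.

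Of 32 measured NRF2 target genes Nqo1 passed with 10 arrays, and the median was 0.12. At an unadjusted p under 0.05 there were 7 higher and 3 lower (5.18% and 9.88% over all genes). With 8 arrays 6 rose, 3 fell and 23 did not pass, against 3.82% and 3.91% of all genes called higher and lower. Besides Nqo1, those that rose were the glutathione transferase Gstm2 (log2 ratio 1.55), the carbonyl reductase Cbr3 (0.99), Ugdh, which makes UDP-glucuronic acid (0.59), the sulfiredoxin Srxn1 (0.51) and the export pump Abcc3 (0.41). Those that fell were Gstm6 (-0.93), the aldo-keto reductase Akr1b8 (-0.84) and Gstp1 (-0.65). Cbr3 lay at 4.63, 4.98, 5.01, 5.44 and 4.43 in wild type liver and at 5.55, 6.27, 5.92, 6.14 and 5.41 in peritumoral KO liver, and at a mean of 8.52 ± 0.94 (SD, n = 5) in the tumors. Akr1b8 lay at 6.23 to 6.69 against 5.20 to 6.10. Gclc, which limits the rate of glutathione synthesis, had a log2 ratio of -0.36 with 8 arrays (adjusted p = 0.261), and Hmox1 had 0.98 (adjusted p = 0.0972). The core of the antioxidant response element, TGACNNNGC on either strand, was found in 8 of 27 promoters of the list (29.6%) and in 14% of all genes, and it was not found for Nqo1 in this window. The list was drawn from known NRF2 targets, so here too the share describes the list and not the KO liver. Ugdh held the core in both directions. The match that reads along the gene, in capitals, lies in the following 60 bases at chr5:65435940-65435999 on the minus strand of GRCm38.p6.
Ugdh: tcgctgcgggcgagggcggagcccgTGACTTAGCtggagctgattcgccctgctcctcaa

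The other glutathione transferase with a large difference was Mgst2, which also makes leukotriene C4. It lay at 4.71, 4.41, 4.89, 5.41 and 4.54 in wild type liver and at 7.64, 7.05, 7.70, 7.88 and 5.11 in peritumoral KO liver, with peritumoral replicate 5 at the wild type level, and rose by 2.45 with 8 arrays (SE 0.53, adjusted p = 0.0301). Gpx3, the secreted glutathione peroxidase, lay at 5.39 to 8.13 in wild type liver and at 7.43, 12.22, 6.94, 8.47 and 7.43 in peritumoral KO liver, the high value being peritumoral replicate 2, and rose by 1.65 with 8 arrays (adjusted p = 0.023). For Prdx2, a peroxiredoxin with a 10-array log2 ratio of 0.76, the 2 probe sets disagreed, and the brighter one had -0.27.

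In the pathway that the deletion interrupts, 25 genes of methionine and SAMe metabolism were measured. With 10 arrays none passed, and with 8 arrays Dmgdh, Bhmt2 and Enoph1 rose and Mat1a, Adi1 and Cbs fell, 6 genes against 7.73% of all genes. Adi1, the dioxygenase of the methionine salvage pathway, lay at 10.04, 9.93, 9.95, 9.84 and 8.02 in wild type liver and at 7.63, 7.99, 7.97, 7.75 and 7.58 in peritumoral KO liver. Wild type replicate 5 lay close to the peritumoral arrays, and the log2 ratio was -1.77 (SE 0.35, adjusted p = 0.0967) with 10 arrays and -1.75 (SE 0.40, adjusted p = 0.0343) with 8. Cbs, which takes homocysteine towards cysteine and glutathione, ran from 9.88 to 10.75 against 9.45 to 10.28 and fell by 0.65 with 8 arrays (SE 0.12, adjusted p = 0.0186). Dmgdh, dimethylglycine dehydrogenase, rose by 0.92 (SE 0.18, adjusted p = 0.021), Bhmt2, a homocysteine methyltransferase, by 0.48 (SE 0.13, adjusted p = 0.0495), and the salvage enzyme Enoph1 by 0.44 (SE 0.08, adjusted p = 0.0165).

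Some other enzymes around SAMe showed small differences. Gnmt, the methyltransferase that disposes of excess SAMe, ran from 13.28 to 13.92 in wild type liver and from 13.70 to 13.91 in peritumoral KO liver (10-array log2 ratio 0.18, SE 0.11, adjusted p = 0.463). Bhmt, which remakes methionine from homocysteine, had 0.05 (SE 0.15, adjusted p = 0.871), Ahcy, the S-adenosylhomocysteine hydrolase, 0.01 (SE 0.18, adjusted p = 0.991), and Mat2b, the regulatory subunit of the other methionine adenosyltransferase, 0.35 (SE 0.16, adjusted p = 0.328). Of 7 genes of polyamine metabolism, Sat1 and Azin1 rose with 8 arrays (7.73% of all genes were called), by 0.82 (adjusted p = 0.0435) and 0.44 (adjusted p = 0.0435). Of 22 genes of DNA and histone methylation, only Mbd3, a subunit of the NuRD complex, passed with 8 arrays, at -0.57 (adjusted p = 0.0412), a share below the 7.73% of all genes.

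The 3 lipid lists are read against the 3.82% of all genes called higher and the 3.91% called lower with 8 arrays. Of 25 genes that store lipid in droplets or take up fatty acids, Lpl, Cd36 and Fabp5 rose with 8 arrays and G0s2, Plin2, Mgll and Cideb fell. G0s2, an inhibitor of the triglyceride lipase ATGL, lay at 10.66, 9.73, 10.74, 8.34 and 9.03 in wild type liver and at 8.15, 5.17, 9.08, 8.08 and 7.75 in peritumoral KO liver, with a log2 ratio of -1.78 in 8 arrays (SE 0.40, adjusted p = 0.0336). Plin2, which coats lipid droplets, ran from 11.62 to 12.25 against 11.47 to 11.63 in 4 peritumoral arrays and 8.52 in peritumoral replicate 2. Of 22 genes of fatty acid synthesis and desaturation, Elovl3, Elovl2 and the delta-5 desaturase Fads1 fell with 8 arrays and Scd2, a stearoyl-CoA desaturase, rose by 1.61 (adjusted p = 0.0132). Of 27 genes of fatty acid oxidation and ketone synthesis, the thioesterase Acot1 (-1.83, adjusted p = 0.0134) and the mitochondrial Cpt2 (-0.34, adjusted p = 0.0396) fell, a share close to that of 7.73% over all genes.

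The 19 genes of cholesterol synthesis differed between the 2 comparisons. None passed in either, but the median was -0.53 with 10 arrays, with 18 of 19 ratios at or below 0, and -0.07 with 8. Per array, the median of the list relative to the wild type mean was 0.28, -2.31, -0.44, 0.30 and -0.68 in peritumoral replicates 1 to 5. Idi1, isopentenyl diphosphate isomerase, lay at 11.49, 4.74, 10.01, 10.61 and 9.34 in the peritumoral arrays with a mean of 10.53 in wild type liver, and peritumoral replicate 2 alone lay far below it. The AP-1 and immediate early genes showed the reverse in the same array, with list medians of -0.13, 1.80, -0.21, 0.12 and -0.03 in peritumoral replicates 1 to 5. Peritumoral replicate 2 was the highest peritumoral array for 16 of these 18 genes and the lowest for 18 of the 19 genes of cholesterol synthesis. Over all genes these shares were 35.4% and 29.8%. Tumor replicate 2 had a similar form, with list medians of -2.28 for cholesterol synthesis and 1.64 for the AP-1 and immediate early genes. The other tumors had -0.82 to 0.16 and -0.02 to 0.81. Whether peritumoral and tumor replicate 2 share an animal is not given by the labels.

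Of 49 cytochromes P450 of families 1 to 4, 5 rose and 6 fell with 8 arrays, against 3.82% and 3.91% of all genes, and none passed with 10. Besides Cyp4a12a, Cyp2d9 and Cyp2d22, those that rose were Cyp2c39 (0.57) and Cyp4f16 (0.41). Those that fell were Cyp2d13 (-1.04), Cyp2c29 (-0.88), Cyp4f14 (-0.77), Cyp2c68 (-0.48), Cyp2j5 (-0.43) and Cyp4f13 (-0.42). Beside the same shares of all genes, 3 of 19 glucuronosyltransferases and sulfotransferases rose with 8 arrays and 2 fell. Of 18 bile acid and drug transporters 3 rose and 3 fell. In conjugation, the sulfotransferase Sult1a1 rose by 0.75 with 8 arrays (adjusted p = 0.00782) and the glucuronosyltransferases Ugt3a1 and Ugt2a3 fell by 1.20 (adjusted p = 0.00207) and 0.78 (adjusted p = 0.0148). In bile acid transport, Abcb11, the bile salt export pump, fell by 0.54 (adjusted p = 0.0272) and Slco1a4 by 1.33 (adjusted p = 0.015), though Slco1a4 was higher in peritumoral replicate 2 than in any other array of both groups. Abcb1a and Abcg5 rose by 1.13 (adjusted p = 0.0336) and 0.97 (adjusted p = 0.0489).

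Of 30 growth factor receptors and MAPK regulators, 3 rose, 2 fell and 25 did not pass with 8 arrays, against 3.82% and 3.91% of all genes. Fgfr1 rose by 1.00 (SE 0.14, adjusted p = 0.00615), Met, the receptor of hepatocyte growth factor, by 0.80 (SE 0.17, adjusted p = 0.0301) and Erbb3 by 0.44 (SE 0.11, adjusted p = 0.0458). Fgfr3 and the kinase Map2k2 fell by 0.48 (adjusted p = 0.0448) and 0.42 (adjusted p = 0.0353). Fgfr1 lay at 5.16, 4.74, 5.37, 6.09 and 5.28 in wild type liver and at 6.09, 9.76, 6.25, 5.97 and 6.24 in peritumoral KO liver, highest by far in peritumoral replicate 2. Igfbp3, which binds the insulin-like growth factors, ran from 6.58 to 7.44 against 7.61 to 9.37 and rose by 0.96 with 8 arrays (adjusted p = 0.0463). Of 20 oncofetal and tumor-associated genes, Spink1, Ly6d, Golm1, Serpinb9 and Afp rose with 8 arrays, against 3.82% of all genes, and none fell. Ly6d, a lymphocyte surface antigen, lay at 5.55, 6.22, 5.61, 9.07 and 5.94 in wild type liver and at 7.44, 6.14, 8.66, 8.05 and 8.86 in peritumoral KO liver, with a mean of 10.39 ± 0.93 (SD, n = 5) in the tumors.

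Among lists of basic cell functions, 4 of 40 ribosomal proteins (Rpl11, Rplp0, Rps6 and Rps7) and 2 of 38 proteasome subunits (Psma4 and Psma7) rose with 8 arrays, against 3.82% of all genes called higher. For the proteasome subunits the count was close to that share. For 33 of the 40 ribosomal proteins wild type replicate 4 was the highest wild type array and for 38 peritumoral replicate 2 was the highest peritumoral array, against 23.5% and 35.4% over all genes. Of 84 genes of the respiratory chain 1 passed (Cox6a2, lower), and 0 of 16 heat shock proteins and 0 of 17 genes of iron metabolism, against 7.73% of all genes. At an unadjusted p under 0.05 in limma with 8 arrays (29.4% of all genes) there were 0 heat shock proteins and 5 of the 17 genes of iron metabolism. None of these passed with 10 arrays. In zonation, again beside 7.73% of all genes, of 17 pericentral genes Rhbg and Slc13a3 rose and Nkd1 fell with 8 arrays, and of 15 periportal and urea cycle genes Asl fell, by 0.69 (adjusted p = 0.00505), while Asl was at 13.23 in peritumoral replicate 2, above all other arrays.

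**Figure D5:**
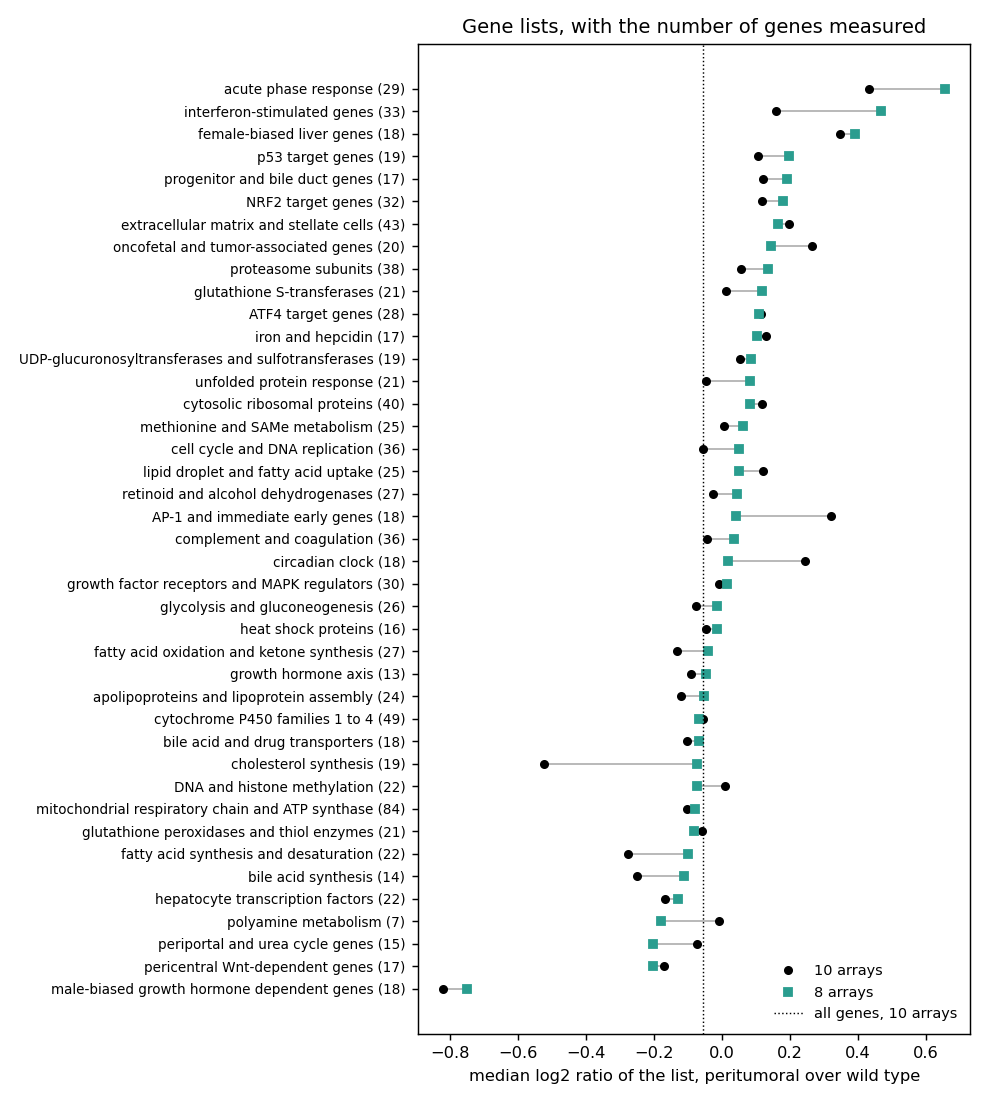
Median log2 ratio (peritumoral KO over wild type liver) of 41 gene lists with 10 arrays (black circles) and with 8 arrays (green squares), with the number of genes measured in parentheses and the median of all genes as a dotted line. The male-biased list lies lowest in both, the acute phase list lies highest at 0.43 and 0.66, and cholesterol synthesis moves from -0.53 to -0.07.

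Between tumors and peritumoral KO liver 2 genes passed (0.0161% of 12393), both higher in tumors, the progenitor marker Prom1 by 2.80 (SE 0.28, adjusted p = 0.0176) and Psat1, an enzyme of serine synthesis, by 2.96 (SE 0.32, adjusted p = 0.0176). At an unadjusted p under 0.05 there were 1150 (9.28%), 576 higher (4.65%) and 574 lower (4.63%) in tumors. With the replicate number as a block 1 other gene passed (0.00807%), Nupr1, also higher (adjusted p = 0.0239), with 1646 at an unadjusted p under 0.05 (13.3%), 767 higher (6.19%) and 879 lower (7.09%). Of the male-biased genes, Hsd3b5 lay at 3.86 ± 0.14 (SD, n = 5) and Slco1a1 at 4.52 ± 0.68 in the tumors. Their differences from peritumoral liver were -0.02 (adjusted p = 0.991) and 0.36 (adjusted p = 0.77). Lpl had a mean of 10.56 ± 0.59 in tumors, and Sult1e1 of 9.17 ± 1.45.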

How the data were processed

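RNA of 15 mouse liver samples had been hybridized to Affymetrix Mouse430A_2 arrays, scanned with GCOS 1.4. The deposited log2 values were made by the authors with RMA (background correction, quantile normalization and 1 summary value per probe set), so differences between arrays in total signal are removed. The RMA version is not given in the sources used here. The deposited ratios of KO to wild type hold the authors' own comparison and were not used.

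Of 22690 probe sets, 20393 had 1 gene symbol in the platform annotation, 691 several and 1606 none. Controls (64) and probe sets without a single symbol were left out, and the remaining 20380 were averaged to 12393 genes, 7437 of them with 1 probe set. Each comparison was fitted in R 4.3.3 with limma 3.58.1 (lmFit, eBayes) on its 10 arrays, without covariates or a filter, with Benjamini-Hochberg adjustment over 12393 genes and a threshold of 0.05. The fit was tested on simulated data with independent noise in each gene and array. No array was made to stand apart, so the test cannot show how the fit handles wild type replicate 4 and peritumoral replicate 2. The SE is that of the log2 ratio. Arrays give no read depth, and their number limits the precision. No 2 arrays shared more than 236 identical values. The peritumoral samples are labelled biological replicates, while nothing says that the wild type samples came from separate animals, so for them the p-values may measure a technical spread.

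The named genes were Mat1a, the 10 largest rises and falls that passed with 10 arrays, those that passed with 8 arrays without overlap of the groups, and for each list the 2 largest rises and falls that passed with 10 arrays or, where none did, the 2 genes with the smallest p in each fit. All other genes named were chosen after their values were seen. The search for TGATGNAA was added after seeing the data. The comparison, the 2 arrays left out and the 41 gene lists and 13 marker lists (1114 of 1244 members measured) were chosen with earlier results of these data known. Marker sums are log2 of summed linear values. Promoters were searched on both strands. Correlations of deviations between wild type and peritumoral arrays of equal replicate number were -0.130 to 0.207. Between peritumoral and tumor arrays of equal number they were 0.117 to 0.673, the highest for replicate 2. Arrays of unequal number were not compared, so pairing was not tested, and the labels do not say which samples share an animal.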

Additional observations from a re-analysis of the deposited data

Results flagged for a closer look

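In 15 of 48 groups of 5 arrays, over 24 named genes, 1 array lay far from the other 4 by Dixon's test at the 95% level. Chance flags about 1 of 20 groups, but most of these genes were named because they passed with wild type replicate 4 and peritumoral replicate 2 left out, so the share of groups and the arrays in them cannot be set against that rate. Wild type replicate 4 was that array in 10 of the 15, peritumoral replicate 2 in 3 and another array in 2.

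Wild type replicate 4 was high for Spink1 (9.76), Prtn3 (10.61), Lpl (10.91) and Cyb561 (8.38), and low for Hsd3b5 (3.68), Slco1a1 (4.15), Elovl3 (4.66), Hao1 (10.03), Ttc39c (9.48) and Cyp7b1 (9.77). Cyb561 is a transmembrane electron carrier, and Ttc39c holds a repeat that binds other proteins. Peritumoral replicate 2 was high for Mat1a (11.44) and low for Hao1 (4.61) and for Tceal8 (7.76). Peritumoral replicate 5 was low for Bcl7c (5.73), and wild type replicate 5 was low for Adi1 (8.02). No cause was tested.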

How the results depend on the processing

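The count of 5 genes over 10 arrays depended on 2 arrays. It was 958 (474 higher, 484 lower) without wild type replicate 4 and peritumoral replicate 2 together, and 4 to 267 without any 1 array (2 to 148 higher, 1 to 119 lower), with 267 without wild type replicate 4 and 68 without peritumoral replicate 2. With array weights it was 1082 (427 higher, 655 lower). It was 10 (4 lower) with the brightest probe set of a gene, 12 (8 lower) in a fit of all 3 groups, 16 (11 higher, 5 lower) with 1 test per probe set, and 2 were lower after leaving out the lowest 40% of genes or with a trended, robust fit. With the replicate number as a block it was 0 (0 higher, 0 lower) in limma, with 1840 genes at an unadjusted p under 0.05, but the labels do not pair these samples. Other settings gave 4 to 7.

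For tumors against peritumoral liver, the 2 genes became 1 with the replicate block, 40 (32 higher, 8 lower) without peritumoral replicate 2 and tumor replicate 2, and 0 to 36 without any 1 array (0 to 35 higher, 0 to 21 lower). Of 2568 values of named genes under other settings 8 changed sign. These were Prdx2, with -0.27 for the brightest probe set, Tat (-0.03 with 10 arrays), with -0.42 to 0.17 without any 1 array, and Ndufaf7 (0.07 with 10 arrays), with -0.038 to 0.32. Of 810 list medians 790 stayed within 1 SD of the main value, the SD being that between the list medians of single peritumoral arrays. Peritumoral replicate 2 is part of that SD and can widen it, so the count does not show that the lists are stable. For cholesterol synthesis, peritumoral replicate 2 had a list median of -2.31. The median log2 ratio of that list was -0.53 with 10 arrays and -0.07 with 8. The cause of these changes was not tested.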

Other observations

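Markers of erythroid cells and of the acinar pancreas had lower medians in peritumoral KO liver (-0.27 and -0.34 with 10 arrays), but their summed levels overlapped between the groups. Of the 3 markers in each list 0 passed with 10 arrays and 1 with 8, against 7.73% of all genes with 8. The summed level of 3 erythroid markers was 9.96, 9.69, 9.57, 7.84 and 9.91 in wild type replicates 1 to 5 and 8.65, 8.26, 9.48, 8.64 and 8.84 in peritumoral replicates 1 to 5, and Alas2, the heme synthesis enzyme of erythroid cells, fell by 0.92 with 8 arrays (limma adjusted p = 0.0278). The summed level of 3 markers of the acinar pancreas ran from 7.44 to 9.48 against 7.24 to 8.32, and the elastase Cela1 fell by 1.08 with 8 arrays (adjusted p = 0.0143). In both sums wild type replicate 4 was the lowest wild type array. The summed level of 10 markers of Kupffer cells and macrophages ran from 11.5 to 13.6 in wild type liver and from 12.2 to 13.4 in peritumoral KO liver, and none of the 10 passed.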
